A study of Homo sapiens with 6 samples.

Results

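Aminoacyl-tRNA synthetases join each amino acid to its transfer RNA before protein synthesis. The cytosol and the mitochondrion use separate sets of these enzymes, most of them made from separate nuclear genes, and names ending in 2 mark the mitochondrial set. Several cytosolic synthetases sit in a large complex held together by scaffold proteins, and the genes of many cytosolic synthetases are known targets of ATF4, the transcription factor of the amino acid response. The gene table was searched for symbols of the form XARS or XARS2, where X is the letter of the amino acid, together with EPRS, FARSA and FARSB. This gave 37 of 12180 listed genes, 20 cytosolic and 17 mitochondrial, and 108 of 33090 listed transcripts. Symbols are spelled as in the table, where EPRS is the joint enzyme for glutamate and proline, FARSA and FARSB are the 2 subunits of the cytosolic phenylalanine enzyme, and GARS and KARS are genes known to supply both compartments.

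RNA was sequenced from TE-1 cells, an established line of human esophageal squamous cell carcinoma (ESCC), in 3 NC and 3 FGL1-OE libraries. According to the study's methods both groups are lines made with lentivirus and selected with puromycin, FGL1-OE cells with an FGL1 plasmid and NC cells with a random nonsense sequence, while the labels give the NC genotype as WT. The question was what overexpression of FGL1, a secreted fibrinogen-like protein, changes in the transcriptome. No source says that the libraries of a group came from separate cultures, so p-values measure the spread between these libraries, which may be technical.

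FGL1 had 0.0202, 0 and 0.106 FPKM across NC 1 to 3 and 33.5, 39.3 and 39.9 FPKM across FGL1-OE 1 to 3, so the groups stood as labelled (log2 fold change 5.21 ± 0.15, standard error, limma adjusted p = 1.29e-05). Of 8 squamous markers, 5 were listed, with KRT6A at 108 FPKM or more and TP63 at 0.779 FPKM or less in every library, and KRT14, PKP1 and SOX2 were not listed. The listed squamous markers summed to 131 to 184 FPKM in NC and 209 to 226 FPKM in FGL1-OE, a sum made up mostly of KRT6A. The groups overlapped in KRT5, KRT17, DSG3 and TP63. All 4 epithelial markers were listed (666 to 1105 FPKM in NC, 866 to 1005 FPKM in FGL1-OE), a sum made up mostly of KRT8 and KRT18. Among them CDH1, the adhesion protein of epithelia, had 44.2, 32.2 and 52.5 FPKM across NC 1 to 3 and 61.7, 61.7 and 62.0 FPKM across FGL1-OE 1 to 3, without overlap (log2 fold change 0.54, two-sided exact permutation p = 0.1). The groups did not overlap for 7.15% of all genes tested. In KRT8, KRT18 and EPCAM they overlapped (log2 fold changes -0.075, 0.094 and 0.075). Of 6 fibroblast markers 3 were listed, which summed to 2.29 to 8.11 FPKM in NC and 3.24 to 8.27 FPKM in FGL1-OE, and COL3A1, DCN and PDGFRB were not. Of 4 leukocyte markers 2 were listed, which summed to 3.11 to 6.06 FPKM in NC and 3.62 to 5.67 FPKM in FGL1-OE, and PTPRC and CD3E were not. The part of the squamous markers and of CDH1 in any result was not tested. NC 1 and NC 2 stood apart from each other across all genes (r = 0.885 on the log2 scale), whereas the FGL1-OE libraries correlated at 0.981 or more. FPKM, which are scaled for length and for the number of mapped fragments, allow levels of genes to be compared per length, and the depth of the libraries is unknown.

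The amino acid response bears on the promoters of this family, so the stretches that hold its element were located first. RefSeq promoter windows of 250 bases before and 50 after a start site (GRCh38.p14) were found for 30 of the 37 genes, in 39 windows, and AARS2, DARS, LARS, VARS, VARS2 and YARS were among those not found. The letters TGATGCAA, searched on both strands, occurred in 6 of the 39 windows (15.4%), against 0.866% of all 35116 windows. All 6 belong to cytosolic genes, AARS, CARS, IARS, MARS, NARS and TARS, out of 16 cytosolic genes with a window. The shorter form TGATGNAA, which includes TGATGCAA, added GARS and YARS2 and occurred in 8 of 39 windows (20.5%), against 3.62% of all windows. The match of these 8 genes is printed here with 10 bases on either side, read along the strand of the gene, with the matched letters in capitals (TTGCATCA and TTTCATCA are the matches of the opposite strand), with TGATGGAA in YARS2, since these are the family members that share the letters. A match is a description of letters and does not show binding.
TARS, chr5:33440957-33440984, plus strand: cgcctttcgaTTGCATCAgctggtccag
GARS, chr7:30594835-30594862, plus strand: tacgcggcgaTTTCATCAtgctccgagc
IARS, chr9:92293693-92293720, minus strand: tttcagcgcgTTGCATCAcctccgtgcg
CARS, chr11:3057408-3057435, minus strand: ggggcggcggTTGCATCAgattctagga
MARS, chr12:57488054-57488081, plus strand: ccggttccggTTGCATCAgcgagggatt
AARS, chr16:70289676-70289703, minus strand: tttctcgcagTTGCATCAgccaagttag
NARS, chr18:57621805-57621832, minus strand: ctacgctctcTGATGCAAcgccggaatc
YARS2, chr12:32756077-32756104, minus strand: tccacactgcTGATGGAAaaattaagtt

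The level of the family covered a wide range in TE-1 cells, and the cytosolic enzymes stood above the mitochondrial ones. Their mean over the 6 libraries ranged from 5.55 to 125 FPKM with a median of 26.8 FPKM, and that of the mitochondrial enzymes from 3.24 to 57.9 FPKM with a median of 9.05 FPKM. GARS, the glycine enzyme, was the highest, with 89.9, 134 and 132 FPKM across NC 1 to 3 and 131, 127 and 133 FPKM across FGL1-OE 1 to 3. NC 1 was the low library and the other 5 lay close together, so that the log2 fold change of 0.16 (standard error 0.19) became -0.025 without NC 1. TARS followed at a mean of 87.8 FPKM, AARS at 80.5 FPKM, SARS at 75.3 FPKM and EPRS at 67.7 FPKM, and from TARS to EPRS neighbours in this order differed by less than 1 SD in NC. GARS was above TARS in each of the 6 libraries. CARS, the cysteine enzyme, was the lowest of the cytosolic set, with 5.79, 5.02 and 6.53 FPKM across NC and 5.23, 5.65 and 5.05 FPKM across FGL1-OE. The FGL1-OE range lay across the lower part of the NC range. The other 14 cytosolic enzymes lay between 12.5 FPKM (HARS) and 37.1 FPKM (IARS).

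Of the mitochondrial set, IARS2, the isoleucine enzyme, was the highest, with 46.1, 63.6 and 57.4 FPKM across NC 1 to 3 and 52.8, 63.9 and 63.6 FPKM across FGL1-OE 1 to 3. RARS2, the arginine enzyme, had a mean of 19.5 FPKM and YARS2, the tyrosine enzyme, one of 13.1 FPKM. PARS2, the proline enzyme, was the lowest, with 2.52, 3.04 and 4.85 FPKM across NC and 3.39, 2.92 and 2.70 FPKM across FGL1-OE. The groups overlapped in IARS2 and in PARS2.

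Summed over the genes, the cytosolic synthetases averaged 761 ± 71.2 FPKM over the NC and 791 ± 23.9 FPKM over the FGL1-OE libraries (SD, n = 3 each, two-sided exact permutation p = 0.6). The mitochondrial synthetases averaged 217 ± 16.2 FPKM and 224 ± 7.13 FPKM in the same way (two-sided exact permutation p = 0.7). The ratio of both sums lay between 3.42 and 3.62 in all 6 libraries. The smallest p that 3 libraries against 3 allow is 0.1, and neither difference exceeded the spread between the NC libraries.

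The ratio of the cytosolic to the mitochondrial enzyme of one amino acid was taken within a library for 17 pairings. It was above 1 in every library for 14 of the 17, which count EPRS against both EARS2 and PARS2 and both FARS subunits against FARS2. EPRS stood highest over its mitochondrial counterparts, with a mean ratio of 21.2 to PARS2 and 13.2 to EARS2. The serine enzymes followed (SARS to SARS2, mean 8.77) and the alanine enzymes (AARS to AARS2, mean 8.18).

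Of the other 3, the isoleucine enzymes had the mitochondrial gene above the cytosolic one in all 6 libraries. The ratio of IARS to IARS2 was 0.712, 0.638 and 0.631 in NC 1, 2 and 3 and 0.636, 0.626 and 0.621 in FGL1-OE 1, 2 and 3. It overlapped between the groups, and the ratios of HARS to HARS2 and NARS to NARS2 lay on both sides of 1.

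**Figure D1:**
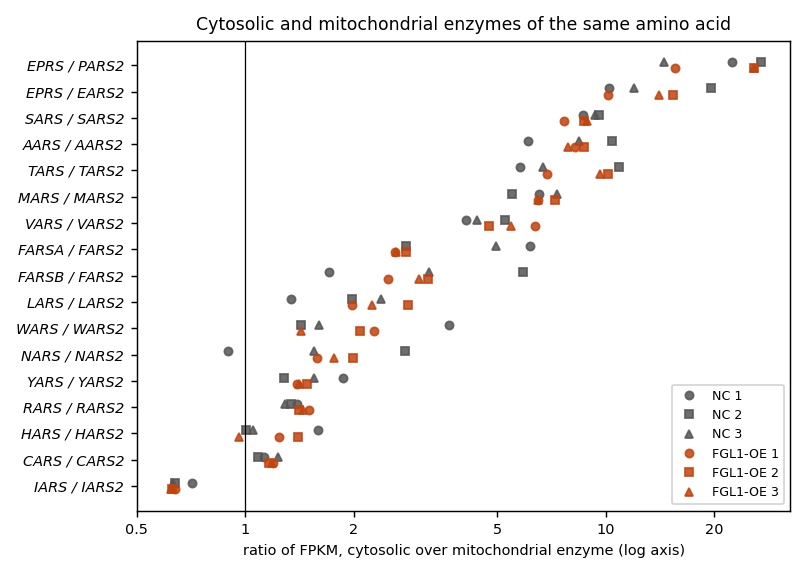
Ratio of FPKM of the cytosolic to the mitochondrial enzyme of one amino acid (log axis), 1 row a pairing, with NC libraries in grey and FGL1-OE libraries in orange (circle, square and triangle for libraries 1, 2 and 3). The IARS row lies left of 1 in all 6 libraries, and the FARSA to FARS2 and RARS to RARS2 rows are the ones where the groups do not overlap.

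The groups did not overlap for 2 of the 17 ratios (11.8%), beside 7.15% of all genes tested for the levels of single genes, so little can be read from the count. RARS to RARS2, the arginine enzymes, was 1.39, 1.33 and 1.29 in NC 1, 2 and 3 and 1.497, 1.40 and 1.45 in FGL1-OE 1, 2 and 3, a difference of 0.12 on the log2 scale (two-sided exact permutation p = 0.1, the lowest possible). FARSA to FARS2, the phenylalanine enzymes, was 6.15, 2.80 and 4.96 in NC and 2.60, 2.79 and 2.63 in FGL1-OE, a difference of -0.72 (two-sided exact permutation p = 0.1, the lowest possible). In the latter NC 2 lay just above the highest FGL1-OE library, and the difference was -0.48 without NC 1 and -1.05 without NC 2.

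Between FGL1-OE and NC the estimated differences of the synthetases were mostly small, with standard errors from 0.14 in KARS to 0.45 in WARS2. An adjusted p-value above 0.05 therefore does not show that a gene was unchanged. Fold changes here are differences of log2(FPKM + 1), a scale that makes those of low genes smaller. On it 31 of the 37 (83.8%) lay within 0.2 of no difference, against 72.3% of the 12017 genes tested. Of the 37, 22 were higher and 15 lower in FGL1-OE. The median log2 fold change was 0.041 for the cytosolic set (14 higher, 6 lower) and -0.012 for the mitochondrial set (8 higher, 9 lower), beside 0.016 over all genes tested. The medians turned to -0.026 for the cytosolic set without NC 1 and to 0.047 for the mitochondrial set without NC 3. As these are bulk libraries, a change in the number of cells that express a gene and a change in its RNA per cell cannot be told apart.

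In limma's fit the adjusted p-value was above 0.05 for each of the 37, as was the case for all genes tested but FGL1 (0.00832% called). FARS2 was the 1 synthetase (2.70% of the 37) with an unadjusted p-value under 0.05, against 242 genes or 2.01% of all genes tested (1.21% higher and 0.807% lower). The groups did not overlap for 2 of the 37 (5.41%), WARS and FARS2, both higher in FGL1-OE, against 7.15% of all genes tested (4.09% higher and 3.06% lower). Both shares were near those of the background.

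**Figure D2:**
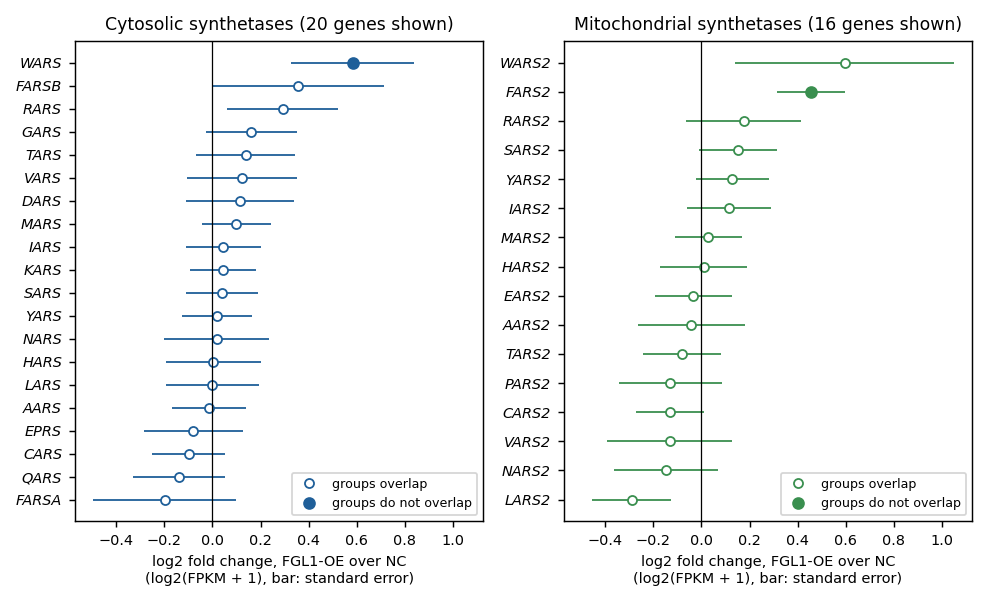
Log2 fold change of FGL1-OE over NC for 20 cytosolic (left) and 16 mitochondrial (right) synthetases on the scale of log2(FPKM + 1), with bars for the standard error from limma and filled points where the groups do not overlap. Of the 36 points 30 lie within 0.2 of 0, and WARS and FARS2 are filled.

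FARS2 (chromosome 6, 5261277 to 5771813 on GRCh37), the mitochondrial phenylalanine enzyme, had 6.44, 5.89 and 6.34 FPKM across NC 1 to 3. The 3 FGL1-OE libraries had 9.75, 8.29 and 8.74 FPKM. All 3 FGL1-OE libraries lay above all NC libraries, and NC 1 and NC 2 lay close together here. This gave a log2 fold change of 0.46 ± 0.14 (standard error), with an unadjusted p = 0.0129 and adjusted p = 1.00 in limma and a two-sided exact permutation p = 0.1. Without 1 library in turn the fold change ranged from 0.40 to 0.50, and the unadjusted p-value exceeded the threshold when FGL1-OE 1 was left out.

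WARS (chromosome 14, 100800125 to 100843142 on GRCh37), the cytosolic tryptophan enzyme and a gene known to respond to interferon, had 8.46, 15.4 and 15.9 FPKM across NC 1 to 3. The 3 FGL1-OE libraries had 21.4, 21.8 and 16.2 FPKM. NC 1 was far below the other libraries, and FGL1-OE 3 lay just above NC 3. The log2 fold change was 0.58 ± 0.26 (standard error), with an unadjusted p = 0.0541 and adjusted p = 1.00 in limma and a two-sided exact permutation p = 0.1. It was 0.31 without NC 1. After quantile normalization the groups overlapped.

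A second RefSeq start of WARS, which lies downstream of the first, is preceded by the letters GAAA, any 2 bases and GAAA, which resemble the interferon element and were chosen after the values had been seen. They occurred in 3 of the 39 windows (7.69%), which belong to WARS and EARS2, and in 3.57% of all windows. The 100 bases before that WARS start are shown with the match in capitals.
WARS, chr14:100375348-100375447, minus strand: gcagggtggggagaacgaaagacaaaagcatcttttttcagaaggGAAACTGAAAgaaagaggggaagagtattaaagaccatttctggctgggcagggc

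WARS2, the mitochondrial tryptophan enzyme, had the largest log2 fold change of the 37 with all 6 libraries, and it rested on NC 1. It had 2.31, 10.8 and 9.93 FPKM across NC 1 to 3 and 9.37, 10.5 and 11.3 FPKM across FGL1-OE 1 to 3. Except for NC 1 the libraries of both groups were mixed. Its log2 fold change of 0.60 ± 0.45 (standard error, two-sided exact permutation p = 0.6) became 0.0023 without NC 1.

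Both subunits of the cytosolic phenylalanine enzyme moved in opposite directions among the NC libraries. FARSA, the catalytic alpha subunit, had 39.6, 16.5 and 31.4 FPKM across NC 1 to 3 and 25.3, 23.1 and 22.9 FPKM across FGL1-OE 1 to 3. FARSB, the beta subunit, had 11.0, 34.7 and 20.5 FPKM across NC and 24.2, 26.6 and 26.5 FPKM across FGL1-OE. The ratio of FARSA to FARSB was therefore 3.61, 0.475 and 1.53 in NC 1, 2 and 3, against 1.04, 0.868 and 0.866 in FGL1-OE 1, 2 and 3. For both genes the FGL1-OE values lay inside the NC range. FARSA had a log2 fold change of -0.20 ± 0.30 and FARSB one of 0.35 ± 0.36 (standard errors). They were -0.55 and 0.74 without NC 2, and both changed sign without NC 1 (0.057 and -0.050).

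The largest differences downward were found in LARS2, NARS2 and VARS2 of the mitochondrial set and in FARSA, QARS and CARS of the cytosolic set. LARS2, the mitochondrial leucine enzyme, had 8.61, 8.35 and 6.25 FPKM across NC 1 to 3 and 5.99, 5.84 and 6.44 FPKM across FGL1-OE 1 to 3. NC 3 lay among the FGL1-OE libraries. Its log2 fold change of -0.29 ± 0.16 (standard error, two-sided exact permutation p = 0.2) became -0.42 without NC 3, where the unadjusted p-value was under the threshold of 0.05.

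NARS2, the mitochondrial asparagine enzyme, had 18.5, 10.2 and 12.9 FPKM across NC and 11.7, 11.8 and 12.9 FPKM across FGL1-OE. VARS2, the mitochondrial valine enzyme, had 9.40, 4.14 and 7.89 FPKM across NC and 5.87, 6.55 and 5.94 FPKM across FGL1-OE. In both, the FGL1-OE libraries lay between NC 1 and NC 2, and the log2 fold changes of -0.15 and -0.13 (standard errors 0.22 and 0.26) changed sign without NC 1. The VARS2 locus shares 5865 bases with GTF2H4 on the same strand, so its reads may be shared. QARS, the glutamine enzyme, had 22.5, 18.8 and 26.4 FPKM across NC and 22.9, 16.6 and 21.7 FPKM across FGL1-OE, with a log2 fold change of -0.14 (standard error 0.19) that ranged from -0.26 without NC 2 to -0.0022 without FGL1-OE 2. CARS had one of -0.099 (standard error 0.15), which ranged from -0.18 without NC 2 to -0.020 without NC 3.

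RARS and RARS2, the arginine enzymes, completed the larger differences upward. RARS had 17.1, 32.6 and 24.7 FPKM across NC 1 to 3 and 29.4, 29.5 and 29.7 FPKM across FGL1-OE 1 to 3. RARS2 had 12.3, 24.4 and 19.2 FPKM across NC and 19.7, 21.0 and 20.6 FPKM across FGL1-OE. In both genes NC 1 was the lowest and NC 2 the highest of all 6 libraries. The log2 fold changes of 0.29 and 0.18 (standard errors 0.23 and 0.24) became 0.058 and -0.080 without NC 1.

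**Figure D3:**
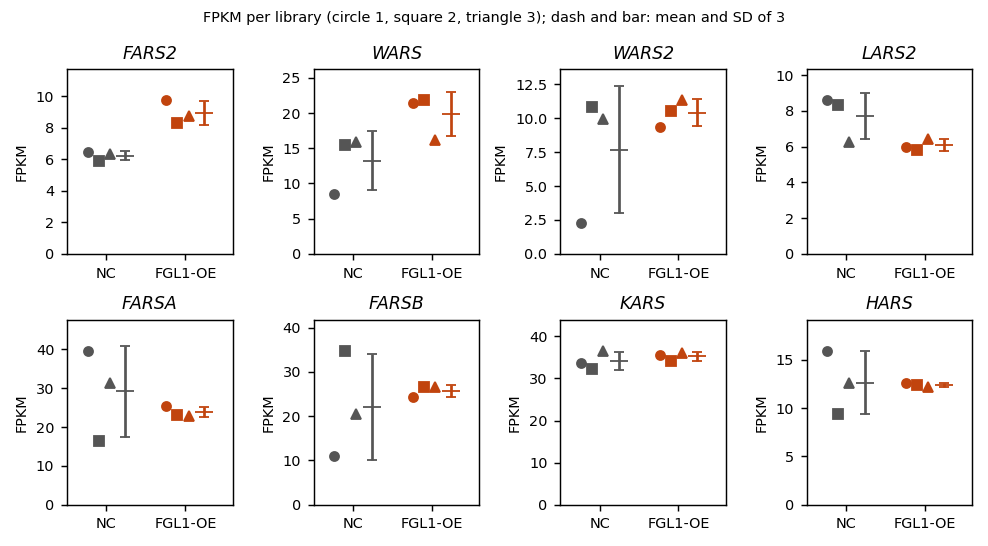
FPKM in each library of 8 synthetase genes, with NC in grey, FGL1-OE in orange (circle, square and triangle for libraries 1, 2 and 3), and a dash with a bar for the mean and SD of 3 libraries. FARS2 and WARS are separated between groups, the WARS2 difference comes from NC 1 at 2.31 FPKM, and NC 1 and NC 2 lie on opposite sides of the FGL1-OE libraries in FARSA, FARSB and HARS.

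KARS, the lysine enzyme, was among the steadiest members, with 33.8, 32.3 and 36.5 FPKM across NC 1 to 3 and 35.5, 34.04 and 36.2 FPKM across FGL1-OE 1 to 3. Its log2 fold change was 0.043 ± 0.14 (standard error), and a difference between the groups was not resolved. HARS, the cytosolic histidine enzyme, had 15.9, 9.39 and 12.6 FPKM across NC and 12.6, 12.4 and 12.2 FPKM across FGL1-OE. HARS2, its mitochondrial counterpart, had 10.04, 9.32 and 12.03 FPKM across NC and 10.2, 8.89 and 12.7 FPKM across FGL1-OE. NC 1 and NC 2 were the highest and lowest libraries in HARS, and the groups overlapped in HARS2. The log2 fold changes were 0.0035 and 0.0094 (standard errors 0.20 and 0.18), and their signs flipped under quantile normalization, that of HARS also with a common sum.

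HARS and HARS2 lie head to head on chromosome 5. In the deposited table HARS (140052758 to 140071609 on GRCh37, minus strand) and HARS2 (140071011 to 140078876, plus strand) share 599 bases. The paper's methods describe second-strand synthesis with dUTP, but the sources do not say whether reads were counted by strand. It is therefore unknown how reads from these bases were assigned to the genes. HARS2 also shares 612 bases with ZMAT2 on the same strand (mean 53.6 FPKM), so reads of HARS2 may be shared with it. In all, 12 of the 37 loci overlap another listed gene, among them MARS, which shares 982 bases with DDIT3 on the opposite strand. On GRCh38.p14 the RefSeq start sites of the pair lie 85 bases apart and their promoter windows share 184 bases. The 84 bases between the starts are shown in capitals, with 10 bases on either side, because they serve as upstream sequence of both genes.
HARS and HARS2, chr5:140691361-140691464, plus strand: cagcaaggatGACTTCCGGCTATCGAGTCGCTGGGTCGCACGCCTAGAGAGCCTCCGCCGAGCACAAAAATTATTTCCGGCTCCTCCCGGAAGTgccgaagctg

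The spread within groups was uneven. The SD of log2(FPKM + 1) was larger in NC than in FGL1-OE for 32 of the 37 synthetases (86.5%), near the 84.1% of all genes tested. The median SD was 0.25 in NC and 0.076 in FGL1-OE, against 0.31 and 0.12 over all genes tested. In 23 of the 37 the 3 FGL1-OE values lay inside the NC range, a count that was not taken over all genes. NC 1 and NC 2 were at the opposite ends of the NC group in 21 of the 37, and 1 of these 2 was the lowest of all 6 libraries in 31 (NC 1 in 15 and NC 2 in 16). NC 3 was at an end of the NC group in 16 of the 37, and it was the highest of all 6 libraries in 10, as was NC 2, against 7 for NC 1.

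Which of NC 1 and NC 2 was higher followed the base composition of the gene. Among the 18 synthetases with the highest GC content in their most abundant transcript (51.8% to 62.6%), NC 1 was above NC 2 in 16. Among the 19 with the lowest (41.2% to 51.7%), NC 1 was above NC 2 in 4. Across the 37 genes the gap between NC 1 and NC 2 had r = 0.78 and rho = 0.82 with GC content, and r = 0.76 across all genes tested. Genes of the same 2 libraries are not independent replicates, so this is a description. FARSA (61.4% GC) and FARSB (41.6% GC) lay near the opposite ends. The log2 fold change between groups had r = -0.33 with GC content over the 37, and r = -0.29 over all genes tested. The part of base composition in the differences between groups was not tested.

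**Figure D4:**
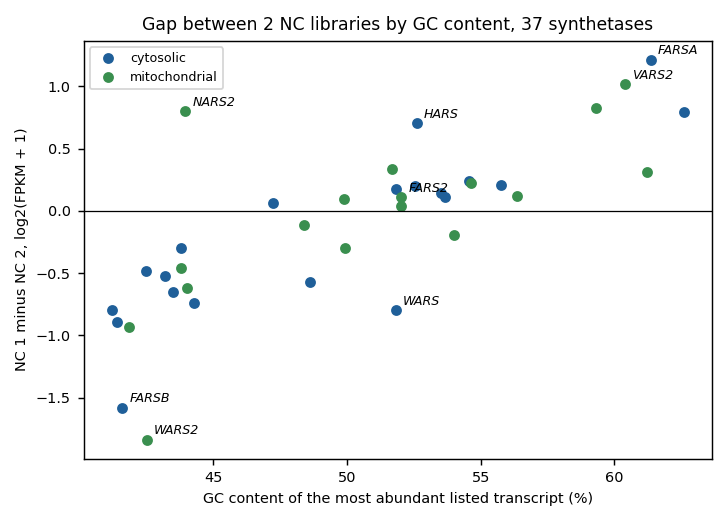
NC 1 minus NC 2 on the scale of log2(FPKM + 1) against the GC content (%) of the most abundant listed transcript, 1 point for each of the 37 synthetases, cytosolic in blue and mitochondrial in green. Genes of high GC content such as FARSA lie above 0 and genes of low GC content such as FARSB and WARS2 lie below it, while WARS and NARS2 lie away from the trend.

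The number of synthetases with small p-values moved with single libraries. Without NC 2 it was 6 of 37 (16.2%), FARSA and VARS2 lower and FARS2, FARSB, RARS and WARS higher, where 2618 genes or 21.8% of all genes tested had an unadjusted p-value under 0.05. In the same fit the groups did not overlap for 12 of the 37 (32.4%), against 42.8% of all genes tested. The smallest adjusted p-value of the 37 in that fit was 0.194 from limma. Without NC 1 the numbers were 1 and 2, FARS2 alone and FARS2 with WARS, against 2.75% and 14.1% of all genes tested.

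At the level of transcripts, 101 of the 108 passed the filter of a mean of 0.5 FPKM. By limma, 0 had an adjusted p-value under the threshold (0.0165% of the 30330 transcripts in the test). The unadjusted p-value was under 0.05 for 1 (3.53% of all), and the groups did not overlap for 3 (2.97%, against 8.22% of all).

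QARS-206 (ENST00000452739), a minor transcript of the glutamine enzyme, had 0.0300, 0.175 and 0.719 FPKM across NC 1 to 3 and 2.00, 1.64 and 1.37 FPKM across FGL1-OE 1 to 3. It took 0.768% of the summed FPKM of the QARS transcripts in NC and 5.37% in FGL1-OE. This was a log2 fold change of 1.06 ± 0.28 (standard error), with an unadjusted p = 0.00879 and adjusted p = 1.00 in limma and a two-sided exact permutation p = 0.1. As the NC values are near 0, its size depends on the added value, and it was 2.51 with 0.1 in place of 1. The most abundant transcript, QARS-209, had 23.8, 20.2 and 39.5 FPKM across NC and 27.3, 14.9 and 25.4 FPKM across FGL1-OE, and its groups overlapped.

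FARSA-201 (ENST00000314606) had 23.1, 19.6 and 17.0 FPKM across NC 1 to 3 and 13.2, 15.4 and 14.02 FPKM across FGL1-OE 1 to 3 (log2 fold change -0.45 ± 0.23, standard error, two-sided exact permutation p = 0.1). The LARS2 transcript ENST00000265537 had 10.4, 10.1 and 7.21 FPKM across NC and 7.18, 6.83 and 4.65 FPKM across FGL1-OE (log2 fold change -0.51 ± 0.27, standard error, two-sided exact permutation p = 0.1). Both were lower in every FGL1-OE library than in any NC library, with NC 3 closest. In the LARS2 transcript the value of FGL1-OE 1 and that of NC 3 were almost the same. For the whole genes FARSA and LARS2 the groups overlapped. EPRS-206 (ENST00000609181), which was below the filter and was chosen after its values had been seen, had 0.897, 0.589 and 0.755 FPKM across NC and 0.00952, 0.00881 and 0.00950 FPKM across FGL1-OE, and it made up 1.45% or less of the summed EPRS transcripts.

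The estimated division of a gene among its transcripts stood apart in single libraries, where the level of the gene differed less. The transcripts of this kind were chosen after their values had been seen. KARS-202 (ENST00000319410), whose reading frame of 625 codons is longer than the 597 codons of KARS-201 (ENST00000302445) and is known as the one with the mitochondrial signal, had 4.91, 4.94 and 5.14 FPKM across NC 1 to 3 and 22.3, 5.87 and 4.92 FPKM across FGL1-OE 1 to 3. Its share of the KARS transcripts was 46.8% in FGL1-OE 1 and 7.19% to 11.3% in the other 5 libraries. The level of the whole gene in FGL1-OE 1 was 35.5 FPKM, inside the NC range.

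IARS-206 (ENST00000447699) took 67.0% of the IARS transcripts in NC 1 and 9.37% or less in the other 5 libraries. In MARS, the methionine enzyme, MARS-201 took 77.8% in FGL1-OE 1, 35.1% or less in FGL1-OE 2 and 3, and 44.8% to 63.8% in NC. MARS-233, annotated with a reading frame of 95 codons, took 3.65% in FGL1-OE 1 and 47.6% and 49.8% in FGL1-OE 2 and 3. FARSA-202 was listed at 8.08 FPKM in FGL1-OE 1 and at 0 in the other 5 libraries, and CARS-214 at 7.05 FPKM in NC 2 and at 0.0242 FPKM or less in the others. None of these transcripts followed the groups, and the value of CARS-214 in NC 2 exceeded that of the whole gene there (5.02 FPKM). GARS-201, the only listed transcript of GARS, had 39.5, 154 and 170 FPKM across NC 1 to 3 and 130, 90.2 and 163 FPKM across FGL1-OE 1 to 3, unlike the values of the gene given above. The gene values are therefore no sums of the listed transcripts, and with such sums the log2 fold change of RARS was 0.66 in place of 0.29.

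**Figure D5:**
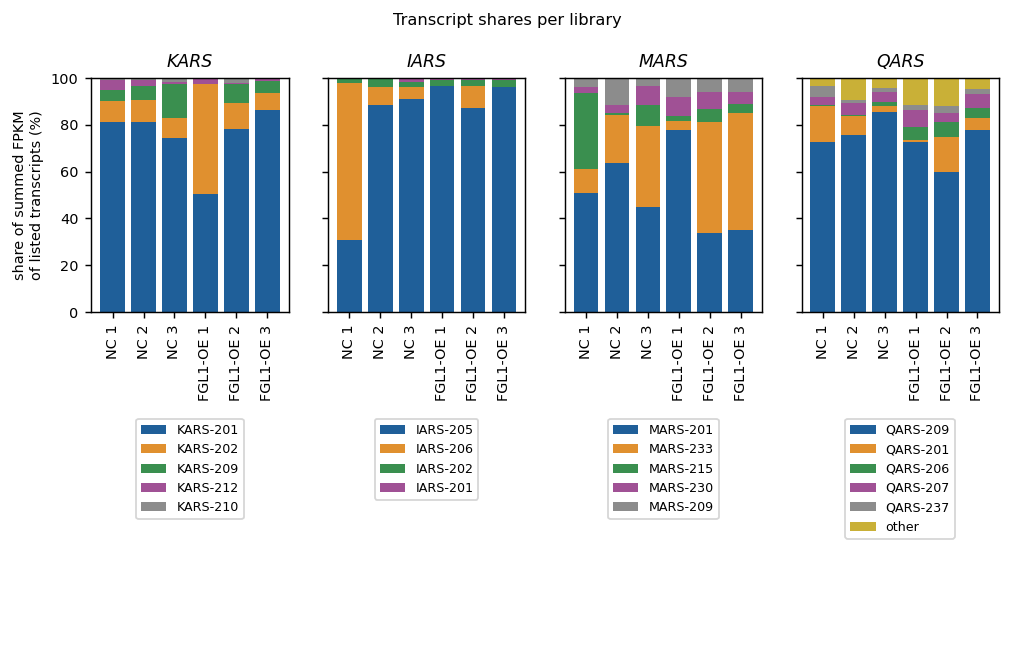
Share (%) of each listed transcript in the summed transcript FPKM of its gene, 1 bar for each library, for KARS, IARS, MARS and QARS, with minor QARS transcripts joined as other. KARS-202 widens to 46.8% in FGL1-OE 1, IARS-206 to 67.0% in NC 1, and QARS-206 is wider in the 3 FGL1-OE libraries than in the NC libraries.

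The 8 synthetases of the multi-synthetase complex (DARS, EPRS, IARS, KARS, LARS, MARS, QARS and RARS) had a median log2 fold change of 0.044, with 5 higher and 3 lower, and by limma the unadjusted p-value was above 0.05 for all 8. Of the scaffolds that hold the complex together, AIMP2 averaged 48.6 ± 7.25 FPKM over the NC and 54.1 ± 4.48 FPKM over the FGL1-OE libraries (SD, n = 3 each). EEF1E1 averaged 10.03 ± 5.09 and 11.4 ± 1.13 FPKM, and AIMP1 18.6 ± 2.46 and 18.1 ± 0.737 FPKM, in the same order. The differences were smaller than the NC spread. By structural class, the 18 class I enzymes had a median of 0.037 and the 18 class II enzymes one of 0.013, each with 11 higher and 7 lower, and EPRS, which joins both classes, had a log2 fold change of -0.080, which turned to 0.071 without FGL1-OE 1 and to 0.044 without NC 2.

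The 26 genes of the amino acid response outside the synthetases had a median log2 fold change of -0.021, with 12 higher and 14 lower in FGL1-OE. ATF4 had 244, 182 and 235 FPKM across NC 1 to 3 and 211, 214 and 213 FPKM across FGL1-OE 1 to 3, inside the NC range. PSPH, which makes serine from phosphoserine, was the 1 gene of the 26 (3.85%) with an unadjusted p-value under 0.05 (2.01% of all genes tested). It had 11.7, 12.8 and 18.0 FPKM across NC and 20.7, 20.1 and 18.0 FPKM across FGL1-OE, with NC 3 just below FGL1-OE 3 (log2 fold change 0.46 ± 0.19, standard error, unadjusted p = 0.0415 in limma, two-sided exact permutation p = 0.1). ASNS, asparagine synthetase, had 11.9, 27.1 and 22.2 FPKM across NC and 20.1, 22.8 and 20.5 FPKM across FGL1-OE, inside the NC range. The groups did not overlap for 3 of the 26 (11.5%, against 7.15% of all genes tested), ALDH18A1 and PSPH higher and NUPR1 lower. The 6 synthetase genes with TGATGCAA in their window ranged from -0.099 (CARS) to 0.14 (TARS), with 4 higher and 2 lower in FGL1-OE, and their groups overlapped. Without NC 1 the value of TARS was -0.033.

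Of the genes around charging, a list of 16 had 8 higher and 8 lower and a median log2 fold change of 0.0089. Most of them act in charging or in the editing, maturation and export of transfer RNA. Their values ranged from -0.42 in AARSD1, an editing factor, to 0.20 in XPOT, the export receptor of transfer RNA. Both ends rested on single libraries, since AARSD1 was at 2.18 FPKM in FGL1-OE 2 and turned to 0.17 without it, and XPOT was at 16.8 FPKM in NC 1 and turned to -0.17 without it. The 3 genes of the mitochondrial amidation that makes glutaminyl-tRNA (GATB, GATC and QRSL1) ranged from -0.076 in GATC to 0.14 in QRSL1, which turned to -0.10 without NC 1, while GATC was -0.025 without NC 2 or without FGL1-OE 2. The 10 genes of translation elongation factors had 5 higher and 5 lower and ranged from -0.29 in TSFM to 0.33 in EEF1B2. That of EEF1B2 was 0.12 without NC 1, and that of TSFM was -0.19 without NC 1 and -0.16 without FGL1-OE 3. By limma the unadjusted p-value was above 0.05 for all 29 of these genes, and their groups overlapped in every case.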

How the data were processed

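RNA-seq libraries of TE-1 cells (3 NC, 3 FGL1-OE) were assigned to groups by the genotype given in the labels. The authors deposited FPKM of each library for genes and transcripts. The submitters' processing notes name StringTie and GRCh37, and the aligner and annotation release are not given in the sources used here. The deposited fold changes, p-values and group means were not used. Columns without a known sample numbered 0. Depth is unknown, so no counting intervals are given.

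The test was limma 3.58.1 in R 4.3.3 (lmFit, eBayes) on log2(FPKM + 1), run over all features whose mean FPKM in the 6 libraries reached 0.5, and p-values were adjusted over all features of a table after Benjamini and Hochberg (threshold 0.05). For single values the library labels were permuted exactly (two-sided, smallest p 0.1). The synthetases and lists were chosen with earlier results of these data known. Named genes are those with an unadjusted p under 0.05, the 3 largest differences in each direction per compartment, the highest and lowest level, GARS, KARS, HARS and HARS2. Named transcripts are those whose groups do not overlap. In the other lists, genes with an unadjusted p under 0.05 are named, or otherwise the largest difference in each direction, and ATF4, ASNS, CDH1, the scaffolds and members counted above were added after their values were seen. GC content, transcript names, reading frames and strands came from GENCODE v29 (GRCh38) by transcript identifier, and promoters from RefSeq (GRCh38.p14). Coordinates of genes are those of the deposited tables. Protein sequences were not used here. The values of 1 synthetase gene are in the counts and sums over the 37 but are not reported here. The code was tested on simulated data. Alternatives were an added value of 0.1 in place of 1, filters at 0 and at 1 FPKM, a common sum (TPM), quantile normalization, an unmoderated linear model, a replicate block, the removal of each library in turn, and transcript values summed by gene.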

Additional observations from a re-analysis of the deposited data

How the results depend on the processing

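The log2 fold change of FGL1 stayed between 5.16 and 8.12 with an adjusted p-value of 0.00642 or less in all alternatives run. No synthetase had an adjusted p-value under 0.05 in any of the 14 alternatives. The number with an unadjusted p-value under 0.05 was 1, against 2 with sums of transcripts (FARS2 and WARS) and 0 to 6 with single libraries left out, 0 without FGL1-OE 1, 2 without FGL1-OE 3, 3 without NC 3 and 6 without NC 2. Over all genes tested the shares by limma were 2.01% in the main fit, 2.78% with sums of transcripts and 1.27% without FGL1-OE 1. They were 1.14% without FGL1-OE 3, 1.57% without NC 3 and 21.8% without NC 2. The number whose groups do not overlap was 2, against 1 after quantile normalization and 3 with sums of transcripts. It was 2 to 12 with single libraries left out, 4 without FGL1-OE 3, 5 without NC 3 and 12 without NC 2. Over all genes tested the share without overlap was 7.15% in the main fit, 7.22% after quantile normalization and 7.59% with sums of transcripts. It was 10.5% without FGL1-OE 3, 13% without NC 3 and 14.1% without NC 1. Without NC 2 it was 42.8%, the highest of these fits. The cytosolic median ranged from -0.026 without NC 1 to 0.087 without NC 3 and the mitochondrial median from -0.063 without NC 2 to 0.047 without NC 3.

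Of the 18 named genes, 7 kept their direction in every alternative, CARS, FARS2, LARS2, QARS, RARS, WARS and WARS2, and so did the 3 named transcripts. Among these genes, WARS2 was at only 0.0023 without NC 1 and QARS at only -0.0022 without FGL1-OE 2. Without NC 1 the log2 fold change changed sign in FARSA (0.057), FARSB (-0.050), GARS (-0.025), IARS2 (-0.013), NARS2 (0.068), RARS2 (-0.080), VARS2 (0.075) and HARS2 (-0.014), and without NC 3 in PARS2 (0.082). HARS changed sign with a common sum (-0.0017), quantile normalization (-0.0049), sums of transcripts (-0.073), without NC 2 (-0.18) and without FGL1-OE 1 (-0.0083). HARS2 did so after quantile normalization (-0.0046), without NC 2 (-0.063) and without FGL1-OE 3 (-0.12), and KARS with sums of transcripts (-0.019). With each library left out in turn the ranges were -0.55 to 0.057 in FARSA, -0.050 to 0.74 in FARSB, -0.025 to 0.26 in GARS, -0.18 to 0.17 in HARS, -0.12 to 0.12 in HARS2, -0.013 to 0.21 in IARS2, -0.33 to 0.068 in NARS2, -0.28 to 0.082 in PARS2, -0.080 to 0.39 in RARS2 and -0.43 to 0.075 in VARS2. The cause was not tested.

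It is not known whether the replicate numbers pair the libraries. The deviations of same-numbered libraries correlated at 0.35, 0.28 and -0.061 for numbers 1, 2 and 3. NC 1 and NC 2 correlated best with the FGL1-OE library of their own number (other numbers: -0.37 to 0.14). NC 3 correlated best with FGL1-OE 1 (0.11). With a replicate block 1 synthetase, FARS2, had an unadjusted p-value under 0.05, and 298 of all genes did, against 242 without it. The absence of counts limits what can be said of genes near 0 FPKM.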
